A study of Mus musculus with 12 samples.

Results

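Nonsense-mediated decay (NMD) is the pathway that degrades mRNAs on which a ribosome terminates in the wrong place, such as at a premature stop codon. The 7 genes described here are Upf1, Upf2, Upf3a, Upf3b, Smg1, Smg5 and Smg6, the core factors of that pathway. They were chosen by name, with earlier results of these data known. All 7 of them were found among the 23420 genes of the deposited RNA-seq and ribosome profiling tables.

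The cells were R1 mouse embryonic stem cells, an established line, kept on gelatin in serum medium with LIF, the cytokine that holds them undifferentiated. They received siRNAs for 48 h, either controls or ones that target Krr1, a protein needed to build the small ribosomal subunit in the nucleolus. The controls are named siGFP, siNC and Lipo, and the knockdowns are called siKrr1 A, siKrr1 C and siKrr1 D after their columns. Each lysate was split into an RNA-seq library and a ribosome profiling library, which sequences the mRNA fragments covered by ribosomes (footprints). Every group therefore holds 3 libraries from 1 cell line, 12 in all. Per the labels, each library of a group received a different siRNA, although the name Lipo states none. The labels do not say whether the lysates came from separate cultures, so p-values capture only the spread among these samples, which may be technical.

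Upf1 is the RNA helicase at the centre of NMD, and it binds the terminating ribosome through the release factors. Upf2 and the paralogs Upf3a and Upf3b link Upf1 to the exon junction complex, which splicing leaves behind on an mRNA. Smg1 is the kinase that phosphorylates Upf1, and phosphorylated Upf1 recruits Smg6, an endonuclease, and Smg5, an adaptor for deadenylation and decapping. The pathway depends on translation, and mRNAs of several NMD factors are known to be NMD targets themselves. In mouse embryonic stem cells it is known for its part in the exit from pluripotency.

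The RNA libraries held 31318772 to 39670139 counts on genes and the footprint libraries 21615934 to 28911254. Krr1 RNA, as counts scaled to library size (CPM), stood at 155, 151 and 160.3 in siGFP, siNC and Lipo. It was 33.7, 58.0 and 64.6 CPM in siKrr1 A, C and D, a mean of 33.5% of control. Its RNA fell by 1.58 ± 0.18 (SE) on the log2 scale (edgeR quasi-likelihood test over all genes, adjusted p = 0.00228). The cells were checked against markers. The 6 stem cell markers (Pou5f1, Sox2, Nanog, Esrrb, Zfp42, Dppa5a) summed to 7116 to 7317 CPM of RNA in controls and 5694 to 6857 CPM in knockdown. In footprints this sum was 4801 to 4900 CPM in controls and 3776 to 4394 CPM in knockdown. The 5 fibroblast markers (Col1a1, Col1a2, Col3a1, Thy1, Acta2) summed to at most 4.30 CPM of RNA in any library, with Col3a1 at 0 in all 6 RNA libraries, and to at most 16.3 CPM of footprints. The 3 endoderm markers (Gata4, Gata6, Sox17) summed to at most 1.76 CPM of RNA and 2.77 CPM of footprints. All levels are shares of a library, so fewer cells of a type and less RNA per cell cannot be told apart.

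The genes lie apart from each other in the mouse genome (GRCm38.p6, the assembly also named mm10). Upf1 is on chromosome 8 (70331493 to 70353423, minus strand) and Upf3a on the same chromosome (13785055 to 13798723, plus strand). Upf2 is on chromosome 2 (5951447 to 6056703, plus strand), Smg5 on chromosome 3 (88336259 to 88362338, plus strand) and Smg1 on chromosome 7 (118131308 to 118244437, minus strand). Smg6 is on chromosome 11 (74925854 to 75164448, plus strand), and Upf3b is on chromosome X (37091678 to 37110471, minus strand). Upf2, Upf3b and Smg5 overlap no annotated gene. Upf1 shares 100 bases with Gdf1 and 96 bases with Cers1, which had at most 1 count in any library. Smg6 shares 1680 bases with Srr and 3072 bases with Hic1, which had at most 59 and 62 RNA counts per library against 2194 to 2533 for Smg6. Other overlapping genes are not among those counted, so their reads could not be checked. Among these, Smg6 shares 15427 bases with the noncoding Gm51907 and fewer with pseudogenes. Smg1 shares 1407 bases with the noncoding Gm40454, and Upf3a shares 2 bases with the noncoding Gm46032.

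Windows of 250 bases before the start site that the RefSeq promoter table lists were matched for all 7 genes. That start can lie inside the annotated gene, so the windows of Smg1 and Upf3a are wholly within the gene, and those of Upf1, Upf2, Upf3b and Smg5 reach into it. Stretches of 3 of these windows are shown, from that table (GRCm38.p6), because the results below turn on these genes: Upf1 had the only called change, and Upf3b and Smg5 had the highest and the lowest footprint-to-RNA ratio. Only the bases that precede the annotated gene are printed, 5′ to 3′ on the strand of the gene, and capitals mark matches to the NRF1 motif core, the CGCG palindrome or the CCAAT box.
Upf1, chr8:70353424-70353529, minus strand: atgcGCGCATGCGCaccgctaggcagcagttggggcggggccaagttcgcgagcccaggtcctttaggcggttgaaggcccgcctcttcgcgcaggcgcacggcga
Upf3b, chrX:37110472-37110572, minus strand: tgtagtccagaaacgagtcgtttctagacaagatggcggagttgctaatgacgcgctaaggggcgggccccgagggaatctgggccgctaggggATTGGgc
Smg5, chr3:88336010-88336258, plus strand: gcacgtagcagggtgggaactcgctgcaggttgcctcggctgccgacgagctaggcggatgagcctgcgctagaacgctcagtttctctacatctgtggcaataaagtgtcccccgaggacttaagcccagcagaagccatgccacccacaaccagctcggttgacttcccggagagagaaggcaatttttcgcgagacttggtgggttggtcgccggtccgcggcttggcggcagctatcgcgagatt

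Letters were searched on both strands of the whole windows. The NRF1 core GCATGCGC was in the Upf1 window only of these 7, as overlapping matches on the opposite strands, and in 2.26% of all 32851 promoter windows. The CGCG palindrome CTCGCGAG was in the Upf3b window alone, and in 0.761% of all windows. It began at -69 from the listed start, which is inside the annotated gene and past the printed stretch. The CCAAT box was in the windows of Upf3a, Upf3b and Smg1 and in 33.8% of all windows. The GC box GGGCGG was in 6 of 7 windows, all but that of Smg5, against 32.7% of all windows. The E-box CACGTG (6.02% of all windows) and the cyclic AMP response element TGACGTCA (1.55%) were in none of the 7. GC content of the 7 windows ran from 56.8% in Upf3b to 72.8% in Upf1, against a median of 52.4% over all windows. No motif searched was in all 7 windows.

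The first comparison asked whether the mRNAs of the NMD factors changed in level after Krr1 knockdown. No change was called: 0 of 7 passed an adjusted p under 0.05 (edgeR quasi-likelihood test, Benjamini-Hochberg adjustment over 14038 genes), where 2.69% of all tested genes rose and 2.11% fell. At an unadjusted p under 0.05 there was 1 of 7, against 20.9% of all genes, and DESeq2 called 0 of 7. The median log2 fold change of the 7 was -0.02, and that of all tested genes was -0.0012. In 2 of 7 genes, Upf1 and Smg6, the 3 knockdown libraries all lay above the 3 controls, as in 13.6% of all genes. None of the 7 lay wholly below the controls, as 13.4% of all genes did.

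The second comparison asked the same of ribosome footprints. Upf1 footprints rose, 1 of 7 genes, where 3.39% of 13287 tested genes rose and 2.68% fell. The same gene was the only one at an unadjusted p under 0.05, against 22.5% of all genes, and DESeq2 called it too. It was also the only one whose knockdown libraries all lay above the controls, as 14.3% of all genes did, and none lay wholly below them, as 13.6% of all genes did. The median log2 fold change of the 7 was -0.02, beside 0.0067 over all tested genes.

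Upf1, the helicase, had RNA of 207, 197 and 193 CPM in siGFP, siNC and Lipo and of 224, 228 and 213 CPM in siKrr1 A, C and D. Every knockdown library was above every control, but the gap between siGFP and siKrr1 D was small beside the spread of the controls. The log2 fold change of the RNA was 0.15 ± 0.07 (SE; 95% interval 0.01 to 0.30), which was not called (edgeR adjusted p = 0.221). Upf1 footprints stood at 511, 521 and 519 CPM in the controls and at 614, 575 and 601 CPM in siKrr1 A, C and D. The controls lay close together, and even the lowest knockdown library, siKrr1 C, was well above the highest control, siNC. The group means were 517 ± 5.42 and 597 ± 19.6 CPM (SD, n = 3), a fold of 1.15. The log2 fold change was 0.21 ± 0.05 (SE; 95% interval 0.10 to 0.32; edgeR adjusted p = 0.0352).

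The Upf1 footprint call was lost in 5 of the 6 fits that left out 1 library, while the size of the change held at 0.18 to 0.23. Its edgeR adjusted p was 0.127 without siGFP, 0.130 without siNC and 0.153 without Lipo. It was 0.0687 without siKrr1 A, 0.0646 without siKrr1 D and 0.0190 without siKrr1 C. Calls over all genes moved too: 450 genes were called higher in footprints in the main fit. Without siGFP, siNC and Lipo this number was 130, 106 and 67. Without siKrr1 A, D and C it was 384, 293 and 791. Summed stem cell markers were lower in the same knockdown libraries, with the values given above. In footprints Nanog and Esrrb fell, to 66.1% and 77.5% of control, Pou5f1 and Zfp42 stood at 86.1% and 82.1% without a call, and Sox2 and Dppa5a stood at 107% and 97.6%. Their part in the Upf1 result was not tested.

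**Figure D1:**
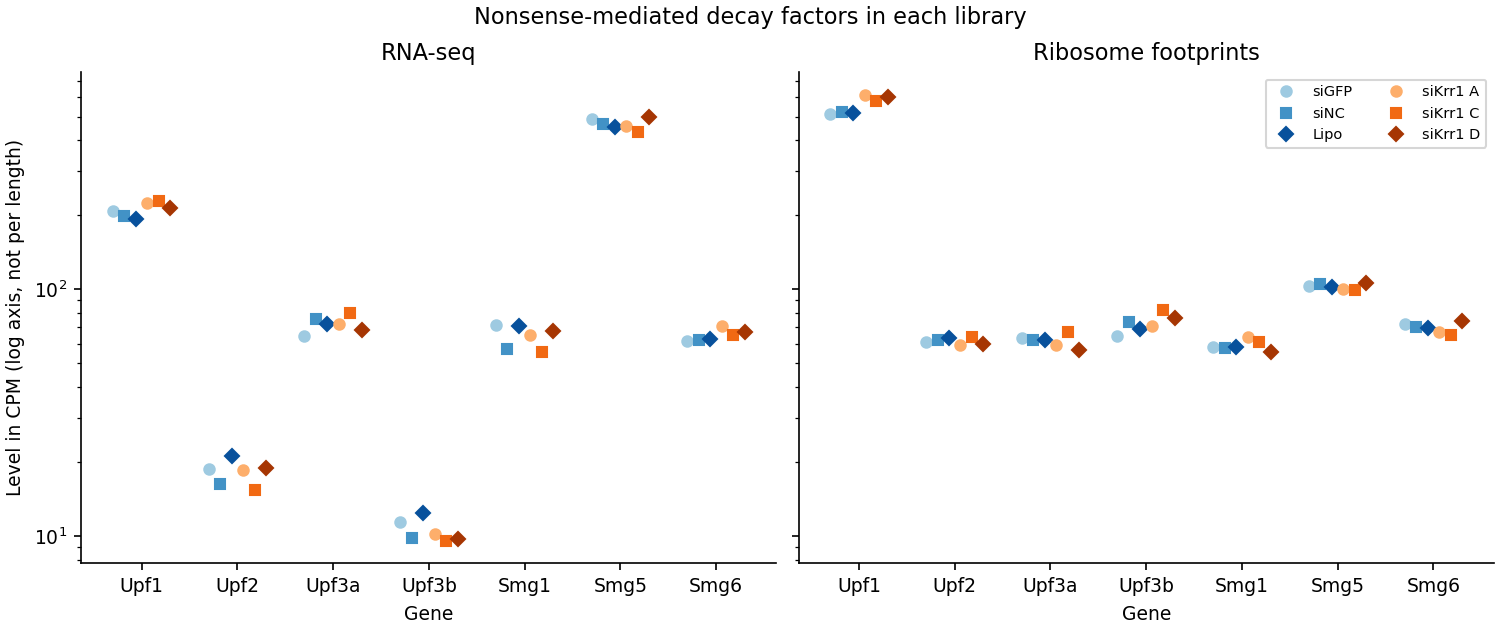
Level of each NMD factor in each library (points), in CPM on a log axis, for RNA-seq on the left and ribosome footprints on the right; levels are not per length, so heights of different genes are not comparable. For Upf1 footprints the 3 knockdown libraries, at 575 to 614 CPM, sit above the 3 controls, at 511 to 521 CPM, while for 5 genes the groups overlap in both panels.

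Upf2, the scaffold between Upf1 and Upf3, had RNA of 18.6, 16.1 and 21.1 CPM in siGFP, siNC and Lipo and of 18.4, 15.4 and 18.9 CPM in siKrr1 A, C and D. Its footprints stood at 60.7, 62.1 and 63.3 CPM in the controls and at 59.1, 63.8 and 59.9 CPM in knockdown. The groups overlapped in both assays, and the lowest RNA library of each group was siNC or siKrr1 C. The log2 fold change was -0.09 in RNA (95% interval -0.37 to 0.19) and -0.03 in footprints (95% interval -0.17 to 0.12). A footprint change of more than 0.17 on the log2 scale in either direction thus lay outside the interval, while the RNA, with 573 to 750 counts per library, was less precise.

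Upf3a and Upf3b are paralogs that occupy the same place in the pathway; Upf3b, on the X chromosome, is known as the more active of the pair in NMD. Upf3a RNA was 64.7, 75.4 and 71.9 CPM in siGFP, siNC and Lipo and 72.1, 80.2 and 68.1 CPM in siKrr1 A, C and D. Upf3a footprints were 63.3, 61.9 and 61.9 CPM in the controls and 59.4, 67.0 and 56.5 CPM in knockdown. The groups overlapped in both assays, with log2 fold changes of 0.06 in RNA and -0.03 in footprints.

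Upf3b had the fewest RNA counts of the 7, 315 to 438 per library. Its RNA was 11.3, 9.84 and 12.3 CPM in the controls and 10.1, 9.57 and 9.71 CPM in knockdown, so that siNC lay inside the knockdown range. The log2 fold change of the RNA was -0.19 (95% interval -0.46 to 0.09; edgeR adjusted p = 0.438). Upf3b footprints went the other way, at 64.2, 73.7 and 69.0 CPM in the controls and 70.8, 82.2 and 76.1 CPM in knockdown, with siNC above siKrr1 A. Their log2 fold change was 0.15 (95% interval -0.02 to 0.32; edgeR adjusted p = 0.298). Neither passed the test.

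The ratio of Upf3b to Upf3a was followed in each library, since the paralogs stand for each other. In RNA the CPM ratio was 0.175, 0.130 and 0.172 in siGFP, siNC and Lipo, against 0.140, 0.119 and 0.143 in knockdown lysates A, C and D. The groups overlapped, through siNC (log2 difference -0.24, 2-sided exact permutation p = 0.3, adjusted over the 2 assays p = 0.3). In footprints the ratio was 1.01, 1.19 and 1.11 in the controls and 1.19, 1.23 and 1.35 in knockdown. There the lowest knockdown, siKrr1 A at 1.193, lay just above the highest control, siNC at 1.190. The log2 difference was 0.18 (exact permutation p = 0.1, the smallest that 3 against 3 samples can give, adjusted p = 0.2).

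Smg1, the kinase, had RNA of 71.7, 57.0 and 70.9 CPM in siGFP, siNC and Lipo and of 65.1, 55.4 and 67.8 CPM in siKrr1 A, C and D. As for Upf2, siNC and siKrr1 C were the lowest libraries, and the SD within the groups (8.26 CPM in controls, 6.51 CPM in knockdown) exceeded the difference between the group means of 66.5 and 62.8 CPM. Smg1 footprints were 58.4, 57.9 and 58.0 CPM in the controls and 63.7, 61.2 and 55.5 CPM in knockdown. The 3 controls lay close together there, and the knockdown libraries lay on both sides of them. The log2 fold change was -0.08 in RNA (95% interval -0.32 to 0.15) and 0.05 in footprints (95% interval -0.11 to 0.20).

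Smg5, the adaptor, had RNA of 488, 465 and 452 CPM in the controls and of 456, 432 and 499 CPM in siKrr1 A, C and D. Its footprints were far fewer, at 103, 105 and 102 CPM in the controls and 100.4, 98.95 and 106 CPM in knockdown. The groups overlapped in both assays. Smg5 had the smallest RNA difference of the 7, with a log2 fold change of -0.02 (95% interval -0.18 to 0.15), and -0.02 in footprints as well (95% interval -0.15 to 0.11).

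Smg6, the endonuclease, had RNA of 61.8, 62.0 and 62.5 CPM in the controls and of 70.5, 65.4 and 66.8 CPM in siKrr1 A, C and D. The controls were within 1 CPM of each other, and all knockdown libraries were above them. The log2 fold change of the RNA, 0.12 ± 0.07 (SE; 95% interval -0.03 to 0.28), was not called (edgeR adjusted p = 0.364). Smg6 footprints did not share this order: they were 72.0, 70.2 and 69.6 CPM in the controls and 67.2, 65.1 and 74.1 CPM in knockdown, with a log2 fold change of -0.04 (95% interval -0.19 to 0.12).

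**Figure D2:**
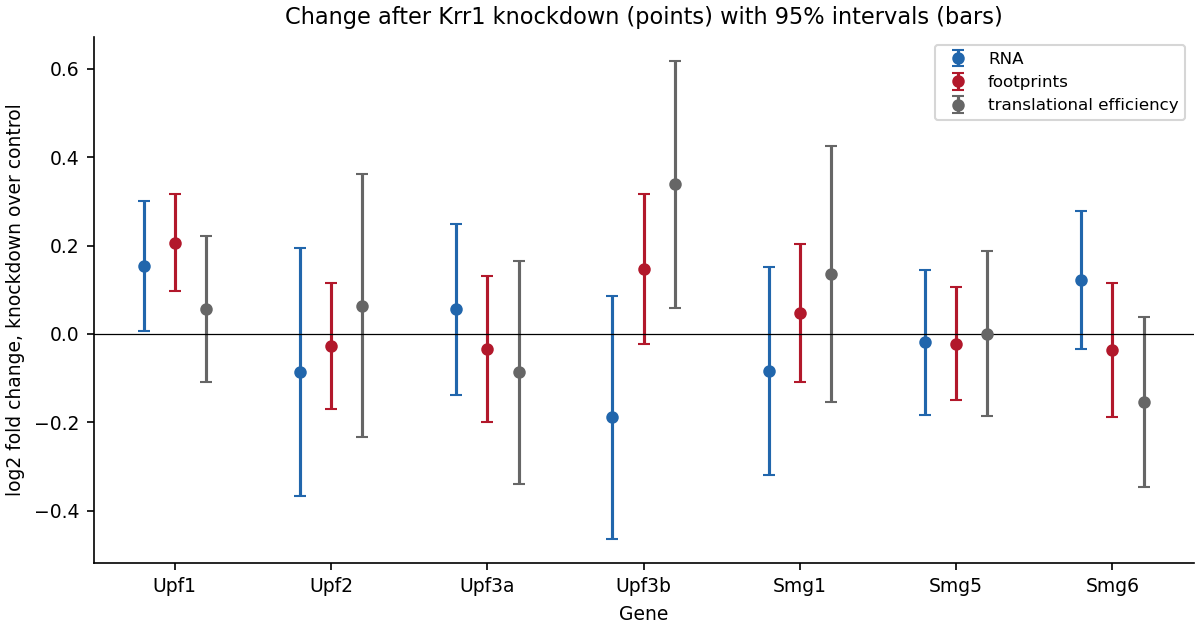
Log2 fold change of knockdown over control (points) with its 95% interval (bars) for each NMD factor in RNA, footprints and translational efficiency. The Upf1 footprint value of 0.21 is the only called change; the Upf3b efficiency value of 0.34 has an interval of 0.06 to 0.62 but was not called.

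The third comparison asked whether ribosome occupancy changed relative to mRNA level. Translational efficiency was tested as the difference between the footprint change and the RNA change in 1 model over the 12 libraries. The edgeR fit with no block called no gene of the 13109 tested (0%), and so 0 of the 7 NMD factors. That fit takes no account of the pairing of the 2 libraries of each lysate. With the lysate as a block, edgeR called 9 higher and 1 lower of these genes, again with 0 of the 7 among them. At an unadjusted p under 0.05 in the fit with no block there was 1 of 7, Upf3b, against 2.36% of all genes. DESeq2, also with no block, called 0 of 7. The Upf3b change was 0.34 ± 0.13 (SE; 95% interval 0.06 to 0.62; unadjusted p = 0.0208, edgeR adjusted p = 0.9999). In the blocked fit its edgeR adjusted p was 0.546. The other 6 genes had efficiency changes from -0.15 (Smg6) to 0.14 (Smg1).

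The footprint-to-RNA ratio, footprint CPM over RNA CPM of the same lysate, shows these changes per lysate. Upf3b had ratios of 5.67, 7.49 and 5.59 in siGFP, siNC and Lipo, and of 6.996, 8.59 and 7.84 in knockdown lysates A, C and D. The control siNC lay inside the knockdown range, and with 1 lysate left out the efficiency change ran from 0.26 without Lipo to 0.48 without siNC. Smg6 had ratios of 1.16, 1.13 and 1.11 in the controls and 0.952, 0.995 and 1.109 in knockdown. All knockdown lysates were below all controls for Smg6, siKrr1 D at 1.109 just below Lipo at 1.113, as in 5.48% of all genes. No other factor had ratios wholly below the controls, and none had ratios wholly above them, as 6.81% of all genes did.

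Between the 7 genes the ratio differed far more than between conditions. It was compared across genes because both of its parts come from the same gene, whereas CPM levels of different genes are not comparable without lengths. A gene with long untranslated regions collects RNA reads where no footprints fall, and the part of this in the ratio was not tested. Over 13108 genes the median control ratio was 0.870, and the 5th and 95th percentiles were 0.266 and 2.75.

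Upf3b had the highest mean control ratio of the NMD factors, 6.25 ± 1.08 (SD, n = 3), at percentile 99.2 of all genes. Upf2 followed at 3.37 ± 0.437 (percentile 96.8) and Upf1 at 2.60 ± 0.122 (percentile 94.4). Smg6 stood at 1.14 ± 0.0262 (percentile 67.4). Near the median of all genes were Upf3a at 0.887 ± 0.0820 and Smg1 at 0.883 ± 0.115. Smg5 was lowest, at 0.221 ± 0.00901, which is percentile 3.39.

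The span from Smg5 to Upf3b was 28.3-fold. The control ranges of neighbours in this order did not overlap, except for Upf3a and Smg1, which could not be separated. Smg1 was the next above Smg5. In knockdown lysates the means were 7.81, 3.51, 2.70, 1.02, 0.830, 0.967 and 0.221 for Upf3b, Upf2, Upf1, Smg6, Upf3a, Smg1 and Smg5, so the order differed only for Upf3a and Smg1.

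**Figure D3:**
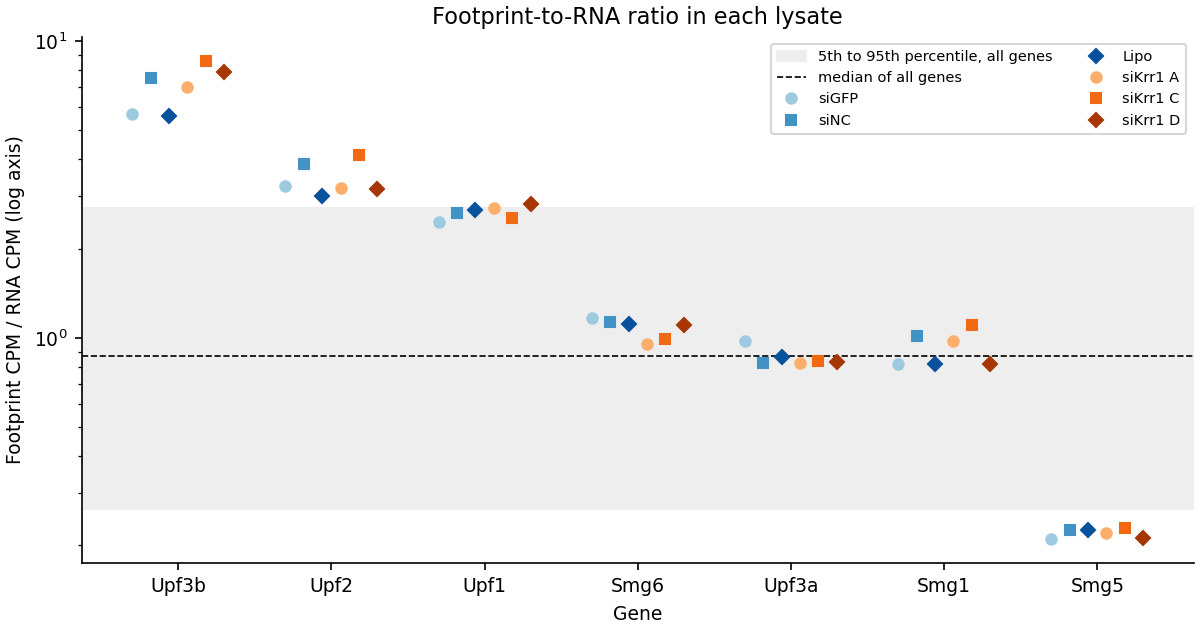
Footprint CPM over RNA CPM in each lysate (points, log axis) for each NMD factor, ordered by the control mean; the grey band is the 5th to 95th percentile over all genes and the dashed line their median. All points of Upf3b and Upf2 lie above the band, as does that of Upf1 in siKrr1 D at 2.83, and Smg5 lies below it. The controls and knockdowns of each gene lie close together beside the 28.3-fold span.

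The 7 genes did not vary together between libraries. On log2 CPM centred within each assay, the correlation of each gene with the mean of the other 6 over the 12 libraries was 0.60 for Upf2, 0.54 for Smg1 and 0.41 for Upf3b. It was -0.04 for Smg5, -0.23 for Upf1, -0.29 for Smg6 and -0.63 for Upf3a. These values describe libraries that share lysates and are given without a test.

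In RNA the pattern of the mean of the 7 came largely from 2 lysates, siNC and siKrr1 C, 1 from each group. Both were lowest in RNA for Upf2 and Smg1, as they were in 5.82% of 13109 genes, and both were highest for Upf3a, as in 4.94% of genes. The footprint-to-RNA ratio was highest in these same lysates for Upf2 and Smg1, as in 6.82% of genes. The cause of this split was not tested, and it crosses the comparison of knockdown with control. In footprints the centred mean of the 7 was -0.034, -0.0034 and -0.022 in siGFP, siNC and Lipo. It was higher in siKrr1 A, C and D, at 0.0044, 0.044 and 0.010. This higher mean does not describe the 7 as a set. Only 3 of the 7 footprint log2 fold changes were positive, against 51.5% of all tested genes. These were Upf1 at 0.21, Upf3b at 0.15 and Smg1 at 0.05, and the median of the 7 was -0.02.

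Likeness to the mean of the NMD factors over the 12 libraries was measured for 6112 other genes (those whose mean reached 20 CPM). Among the 5 most alike were Nemf, a factor of ribosome-associated quality control (Pearson r = 0.94), Cenpe, a kinetochore motor (0.93), Ranbp2, a nuclear pore protein (0.92), and Pcm1, a centriolar satellite protein (0.92). Nemf RNA was 23.0, 17.5 and 27.1 CPM in siGFP, siNC and Lipo and 25.1, 18.1 and 25.7 CPM in siKrr1 A, C and D. As with Upf2 and Smg1, siNC and siKrr1 C were its lowest libraries, and so they were for Cenpe, Ranbp2 and Pcm1. In footprints the 3 knockdown libraries lay above the 3 controls for each of them, as in 14.3% of all genes. Cenpe and Ranbp2 footprints were called higher, by 0.31 (edgeR adjusted p = 0.0165) and 0.34 (adjusted p = 0.0155), where 3.39% of all genes rose. Nemf and Pcm1, at 0.09 and 0.08, were not called. All were picked by likeness over these same libraries, so this is no test.

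**Figure D4:**
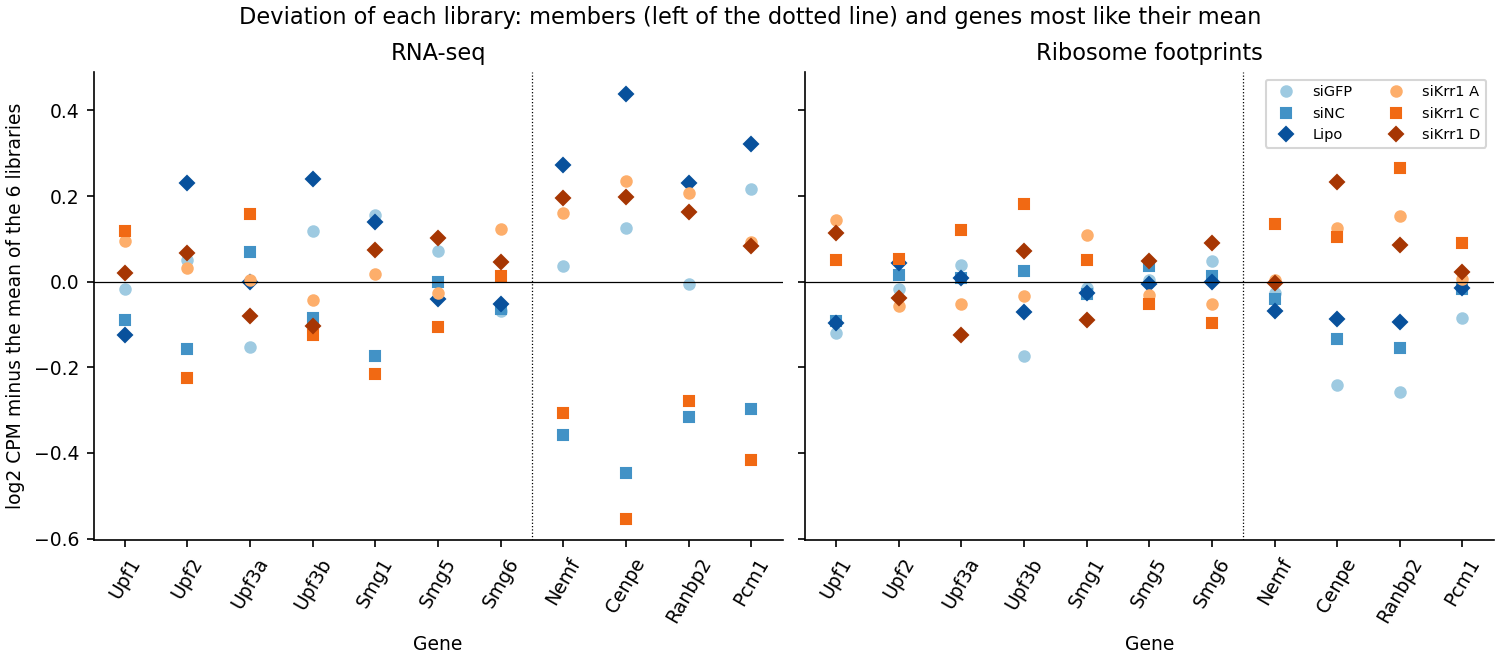
Log2 CPM of each library minus the mean of the 6 libraries of its assay (points), for the 7 NMD factors left of the dotted line and 4 of the genes most like their mean right of it. In RNA-seq siNC and siKrr1 C (squares) are lowest for Upf2, Smg1 and these 4 genes. In footprints the 3 knockdown libraries lie above the 3 controls for Upf1 and for these 4 genes.

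The rest of the pathway was described by 5 lists with 51 genes in all, each of them tested. The lists were chosen with earlier results of these data known, so their counts are not independent of the data. In RNA 2 of 51 rose and 2 fell, beside 2.69% and 2.11% of all genes, and in footprints 3 rose and 2 fell, beside 3.39% and 2.68%. These genes were in the list of transcripts known as NMD-sensitive; whether the lists differ was not tested. The other 4 lists had no called gene in RNA or footprints, and none of the 51 was called in translational efficiency. At an unadjusted p under 0.05 there were 9 of 51 in RNA, 19 in footprints and 2 in efficiency, beside 20.9%, 22.5% and 2.36% of all genes. DESeq2 called 4 in RNA, 5 in footprints and 0 in efficiency.

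Of 6 other NMD factors (Smg8, Smg9, Dhx34, Nbas, Pnrc2, Sec13) 0 were called, with log2 fold changes from -0.23 to 0.04 in RNA and from -0.14 to 0.21 in footprints. Sec13, a nuclear pore and COPII coat protein, had values of 0.03 in RNA and 0.05 in footprints. Smg8, a subunit of the Smg1 kinase complex, had 0.02 and -0.11, and Pnrc2, a decapping adaptor, had 0.04 and 0.05. Smg9, which regulates the Smg1 kinase, had a footprint value of 0.21, the same size as that of Upf1, at an edgeR adjusted p of 0.114; it is named after its value was seen.

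Of 11 exon junction and cap-binding genes 0 were called, with log2 fold changes from -0.18 to 0.24 in RNA and from -0.16 to 0.24 in footprints. Casc3, a core protein of the junction complex, had 0.24 in RNA (edgeR adjusted p = 0.143) and 0.22 in footprints (adjusted p = 0.0790), and Rnps1, a peripheral one, had 0.24 in footprints (adjusted p = 0.0906); both are named after their values were seen. The helicase Eif4a3, which clamps the complex on RNA, had log2 fold changes of -0.02 in RNA and -0.05 in footprints. Its partner Magoh had 0.07 and 0.03, and the peripheral protein Acin1 had -0.07 and -0.0021. Of 13 decapping, deadenylation and exonuclease genes 0 were called as well, with values from -0.27 to 0.22 in RNA and from -0.21 to 0.28 in footprints. Cnot1, the scaffold of the CCR4-NOT deadenylase, had -0.03 in RNA and 0.02 in footprints, the decapping activator Ddx6 had 0.02 and -0.12, and the decapping scaffold Edc4 had 0.19 and 0.11.

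Of the 3 termination genes 0 were called. Etf1, the release factor that reads stop codons, had -0.05 in RNA and -0.10 in footprints. Gspt1, the release-factor GTPase that binds Upf1, differed in 1 library only. Its RNA was 177, 186 and 194 CPM in siGFP, siNC and Lipo and 172, 185 and 97.2 CPM in siKrr1 A, C and D. Its footprints were 472, 478 and 472 CPM in the controls and 493, 511 and 260.2 CPM in knockdown. In siKrr1 D alone, in both assays, the level was thus far below all other libraries. The log2 fold change of -0.29 in RNA became -0.05 without siKrr1 D, and that of -0.17 in footprints became 0.08.

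Of 18 transcripts known as NMD-sensitive, Cdkn1a and Gadd45a rose in RNA and Atf4 and Trib3 fell. In footprints Cdkn1a, Gadd45a and Gadd45b rose and the same pair fell. The called genes thus moved in both directions, and the median of all 18 was -0.04 in RNA and -0.03 in footprints. Values of the 18 ran from -0.48 to 0.69 in RNA and from -0.62 to 0.80 in footprints. Counts per gene symbol merge the isoforms of a gene, so a change in 1 NMD-sensitive isoform cannot be seen in them. Atf4 and Trib3 are also genes of the integrated stress response, and Cdkn1a and Gadd45a are also targets of p53.

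Atf4, a transcription factor with upstream reading frames, had RNA of 518, 584 and 581 CPM in the controls and of 386, 428 and 432 CPM in siKrr1 A, C and D, and fell by 0.43 ± 0.08 (SE) on the log2 scale (edgeR adjusted p = 0.0135). Its footprints fell by 0.62 ± 0.09 (edgeR adjusted p = 0.00346), from 170.1, 183 and 175 CPM to 97.0, 123 and 122 CPM. All knockdown libraries lay below all controls in both assays, as in 13.4% of all genes in RNA and 13.6% in footprints. The footprint call of Atf4 held in all 6 edgeR fits that left out 1 library (largest adjusted p = 0.0318). Trib3, a pseudokinase induced by Atf4, fell by 0.42 in RNA (edgeR adjusted p = 0.0260) and by 0.49 in footprints (adjusted p = 0.0127). The RNA call of Atf4 was lost without siNC or Lipo (adjusted p = 0.0700 and 0.0778).

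Cdkn1a, the cyclin-dependent kinase inhibitor p21, had RNA of 21.1, 17.0 and 16.5 CPM in the controls and 36.9, 25.9 and 25.4 CPM in knockdown. Its footprints went from 27.4, 25.4 and 24.4 CPM to 56.7, 31.4 and 46.3 CPM. It was highest in siKrr1 A in both assays. The rise was 0.69 ± 0.15 (SE) on the log2 scale in RNA (edgeR adjusted p = 0.0301) and 0.80 ± 0.17 in footprints (adjusted p = 0.0203). Gadd45a, a stress-induced growth arrest gene, rose by 0.48 in both RNA (edgeR adjusted p = 0.0309) and footprints (adjusted p = 0.0464). Its relative Gadd45b rose by 0.45 in footprints (edgeR adjusted p = 0.0413) and had 0.35 in RNA (adjusted p = 0.128).

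Calls of Trib3, Cdkn1a, Gadd45a and Gadd45b were each lost in at least 1 fit that left out 1 library, in the assays where they were called. The largest edgeR adjusted p was 0.123 for Trib3, 0.128 for Cdkn1a and 0.114 for Gadd45a in RNA. In footprints it was 0.0845, 0.107 and 0.198 for the same genes and 0.185 for Gadd45b. Over these fits the number of called pathway genes ran from 0 to 4 in RNA and from 1 to 7 in footprints. Among all tested genes, those called higher ran from 63 to 759 in RNA and from 67 to 791 in footprints.

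**Figure D5:**
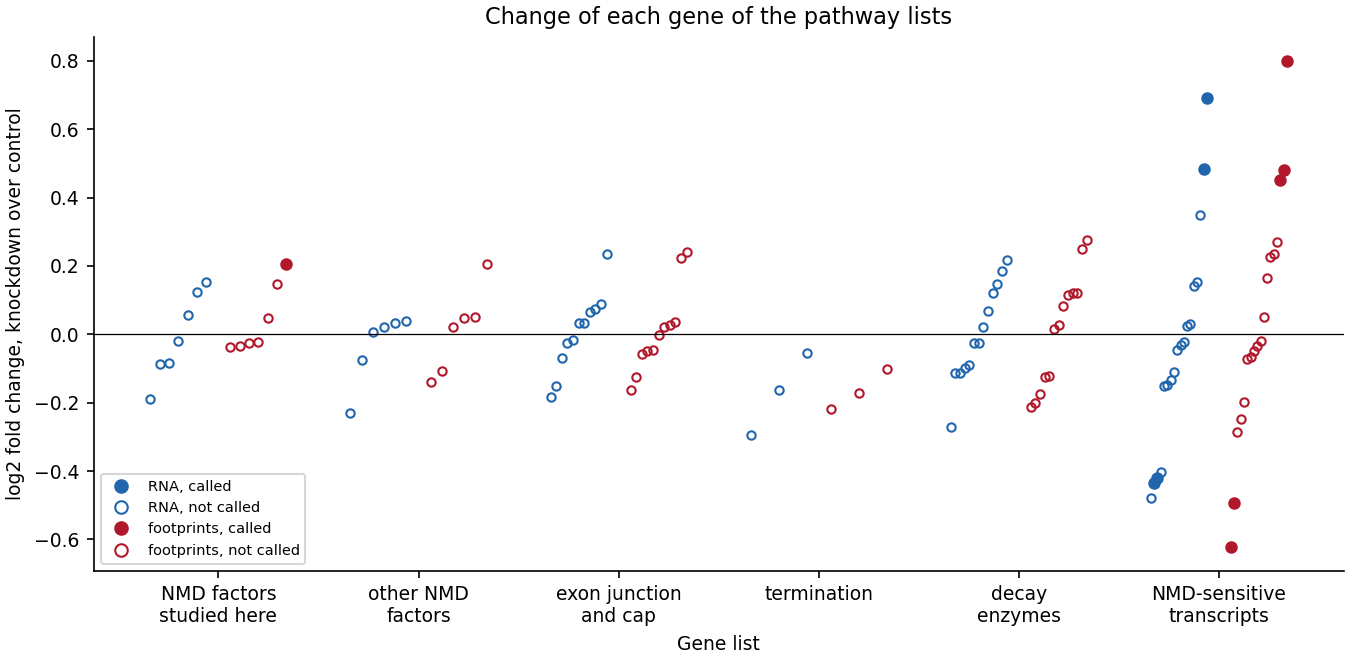
Log2 fold change of knockdown over control for the 7 NMD factors and the 51 genes of the pathway lists (points) in RNA and footprints; filled points passed an adjusted p under 0.05. Called genes are Upf1 in footprints and members of the NMD-sensitive list, on both sides of 0.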

How the data were processed

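Lysates were split between the assays, digested with RNase I and size-selected at 40 to 60 nt for RNA-seq and about 30 nt for footprints, then sequenced with 50-base reads, per the labels' protocols. The values deposited by the authors are raw read counts per gene symbol, for which the submitters' processing notes name STAR, HTSeq and mm10, with versions, annotation and strand setting not given in the sources used here. Rows that name no gene were kept out: 66.4% to 68.6% of unique alignments were on genes in RNA and 36.6% to 42.4% in footprints. Reads of overlapping genes cannot be told apart without the strand setting. Of 23420 symbols, 23284 (99.4%) matched the RefSeq table (GRCm38.p6). No pair of libraries of 1 assay and group was a duplicate (chi-square per degree of freedom 4.03 to 28.7 over 12 pairs).

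All genes kept by filterByExpr were fitted with the edgeR 4.0.16 quasi-likelihood test (R 4.3.3, limma 3.58.1) with TMM scaling (RNA factors 0.984 to 1.04, footprint factors 0.988 to 1.02), Benjamini-Hochberg adjustment over all genes and calls at an adjusted p under 0.05 (the threshold). Biological coefficients of variation were 11.0% (RNA), 9.30% (footprints) and 10.2% (joint fit). CPM uses TMM library sizes, and centred log2 values use a prior count of 2. DESeq2 1.42.0 was an alternative, beside its size factors in edgeR, no low-count filter, the lysate as a block and leaving out each library. The scripts were tested on simulated data with independent libraries, which cannot show how the efficiency test behaves with paired lysates.

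The pairing of the assays comes from the divided lysates. Over 6117 genes, the RNA and footprint deviations from group means of 1 lysate had r of 0.265 to 0.713. Those of different lysates of a group had r of at most 0.0038. Centring on so few libraries forces low r between different lysates where that of the same lysate is high. The low value is thus largely built in and adds no separate evidence of pairing. The members and lists were chosen with earlier results of these data known. Named were all members, Krr1, up to 4 called genes per list and comparison by adjusted p (or the 2 most abundant), and the 5 genes most like the members' mean. Of the genes in the lists or named by this rule, 2 are not reported here. Gadd45a in footprints, Smg9, Casc3 and Rnps1 fall outside that rule. The planned level per length was not computed because no lengths were at hand, and no protein sequences were used here.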

Additional observations from a re-analysis of the deposited data

How the results depend on the processing

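Of 63 recomputed log2 fold changes of the 7 NMD factors in RNA, 57 kept their direction and side of the threshold and 6 changed sign. In footprints 56 of 63 did, 5 kept their direction but lost the Upf1 call, and 2 changed sign. In translational efficiency 62 of 70 did, and 8 changed sign. The sign changes were all in values that were not called. With 1 library left out, RNA values ran from -0.17 to 0.016 for Upf2, -0.0038 to 0.12 for Upf3a, -0.18 to 0.0069 for Smg1 and -0.070 to 0.036 for Smg5. Footprint values ran from -0.11 to 0.019 for Upf3a, -0.094 to 0.0019 for Smg6 and -0.33 to 0.082 for Gspt1. With 1 lysate left out, efficiency values ran from -0.049 to 0.024 for Smg5 and -0.054 to 0.16 for Upf2. The Smg5 efficiency value of 0.00055 became -0.0020 with DESeq2 size factors, -0.011 with no low-count filter and -0.0020 with DESeq2. The number of NMD factors called in footprints was 0 to 1 over the fits with 1 library left out, and the pathway lists had 0 to 4 called genes in RNA and 1 to 7 in footprints. The log2 difference in the Upf3b to Upf3a ratio ran from -0.38 to -0.16 in RNA and from 0.12 to 0.24 in footprints. With the lysate as a replicate block, 0 of 7 NMD factors were called in efficiency, as without it, and the Smg5 value was 0.00081. Fewer samples enter each fit with a library left out. Upf2 RNA (573 to 750 counts per library) and Upf3b RNA (315 to 438) have the widest intervals of the 7 in RNA.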
